A study of Mus musculus with 8 samples.

Results

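The nuclear genes for the proteins of the mitochondrial ribosome were examined in mouse hearts with and without Mettl3 in cardiomyocytes. Members were all protein-coding genes of the processed table whose symbol begins with Mrpl or Mrps followed by a digit, which gave 77 of 23045 genes, 48 Mrpl and 29 Mrps. METTL3 is the catalytic subunit of the complex that methylates adenosines in RNA (m6A). Total RNA of hearts was sequenced for 4 WT libraries (Mettl3 lox/lox) and 4 Mettl3 KO libraries (Mettl3 lox/lox: αMHC-MerCreMer pos). The question was which transcripts differ once Mettl3 is deleted in adult cardiomyocytes. Per the study's methods, mice of both genotypes were 10 to 16 weeks old and received 100 µg tamoxifen per 1 g body weight on 7 consecutive days. The αMHC promoter drives the Cre recombinase in cardiomyocytes, so other cells of the heart keep Mettl3. The WT mice carried no Cre, so effects of losing Mettl3 and of the activated Cre cannot be told apart. The labels number the libraries of a genotype 1 to 4 without naming the animal, and the p-values measure the spread between these libraries.

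The mitochondrial ribosome sits in the matrix and translates the few proteins that the mitochondrial genome encodes, all of them subunits of the respiratory chain and the ATP synthase. Its large subunit joins amino acids and its small subunit reads the mRNA. Every protein of both subunits is encoded in the nucleus and imported, some with a homologue in the bacterial ribosome and others found only in mitochondria. Heart muscle is rich in mitochondria, and inherited defects of several of these proteins, MRPL3 and MRPL44 among them, cause cardiomyopathy in humans.

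Values are normalised read counts, scaled between libraries by the authors and rounded to whole numbers. Library totals lay between 2839589 and 2881849 in WT and between 2840184 and 2916986 in Mettl3 KO, and 3 reads corresponded to a value of 2.78 to 3.33. Mettl3 itself read 105, 133, 118 and 107 in WT against 74, 68, 69 and 78 in Mettl3 KO, with a log2 difference of -0.67 (standard error 0.10, adjusted p = 0.000184 in limma). None of 8 cardiomyocyte markers passed the test (summed value 81753 to 88346 in WT and 80704 to 90482 in Mettl3 KO), and likewise 0 of 8 macrophage markers. Of 8 fibroblast markers 7 were higher (3648 to 4172 against 4711 to 5671), and of 8 endothelial markers 1 was higher and 4 were lower (5183 to 5359 against 4731 to 5131). The 3 atrial markers were higher (Myl7, Sln and Bmp10, summed value 0 to 38 against 33 to 541). Of these, Bmp10 was at 0 in all WT libraries and in Mettl3 KO library 1. A fit with the atrial markers as a covariate is given with the values by library, and the part of the fibroblast and endothelial differences in the results was not tested. In bulk tissue, fewer cells of a type and less RNA per cell cannot be told apart.

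A subset of the mitoribosomal genes was higher in Mettl3 KO hearts, and 1 was lower. All 77 members passed the filter on low values and were tested. Of these 17 rose (22.1%), 1 fell and 59 did not pass the test at an adjusted p of 0.05. Over all 20313 genes tested, 4.72% were called higher and 3.19% lower, and over the protein-coding genes alone 6.36% and 3.65%. Without the mean-variance trend in limma 5 rose and 0 fell, where 1.04% of all genes were called higher. The log2 fold change was above 0 for 55 members and below 0 for 22, with a median of 0.12 and quartiles of -0.02 and 0.30. The median over all genes tested was -0.01. A second count used only whether the values of the 4 WT and 4 Mettl3 KO libraries overlapped, which was added after seeing the data. By this count 24 members lay wholly higher and 3 wholly lower in Mettl3 KO, against 6.46% and 5.04% of all genes. All 18 members called by limma were among these 27.

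**Figure D1:**
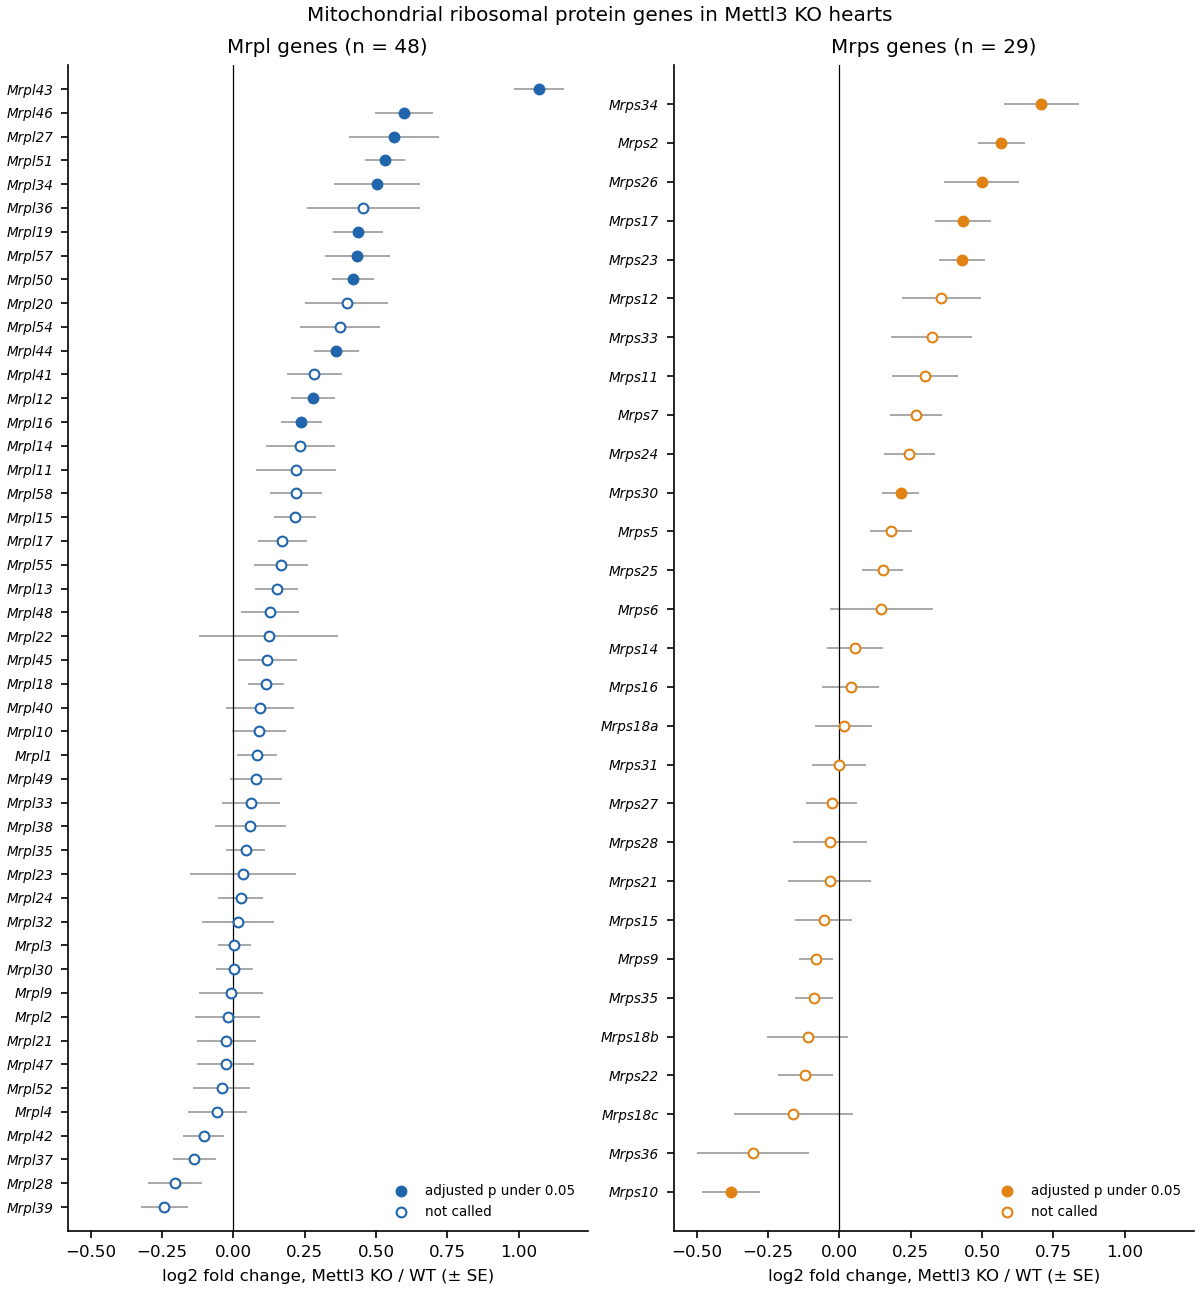
Log2 fold change of each of the 77 members (Mettl3 KO against WT, on the log2(value + 1) scale, error bars SE), with 48 Mrpl genes left and 29 Mrps genes right, ordered by fold change. Filled points passed the limma test at an adjusted p of 0.05. Mrpl43 stands highest at 1.07, and Mrps10 at -0.38 is the only filled point below 0.

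The 77 members lie on 17 chromosomes. To show the upstream sequence of the members at both ends of the range, promoters of the 3 members with the smallest p and of Mrps10 are given, from 250 bases before to 50 after the start of the gene (RefSeq, GRCm38.p6). Capitals mark matches to motifs of factors known to act on nuclear genes for mitochondrial proteins, the ETS core CCGGAAG (bound by GABPA and related factors), the NRF1 core GCATGCGC and the YY1 core ATGGCGG, each searched on both strands. Mrpl43 (chr19:45006393-45006692, minus strand) holds 2 ETS cores, Mrpl51 (chr6:125191950-125192249, plus strand) holds 1 ETS core, Mrps2 (chr2:28467816-28468115, plus strand) holds 1 YY1 core on the opposite strand, and Mrps10 (chr17:47368947-47369246, plus strand) holds none of the 3.
Mrpl43: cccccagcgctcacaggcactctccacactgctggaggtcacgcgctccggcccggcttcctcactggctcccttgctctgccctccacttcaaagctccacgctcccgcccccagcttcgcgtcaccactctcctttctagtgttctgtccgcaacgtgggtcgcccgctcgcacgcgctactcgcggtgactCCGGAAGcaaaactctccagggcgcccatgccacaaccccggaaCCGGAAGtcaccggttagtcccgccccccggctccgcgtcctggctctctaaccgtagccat
Mrpl51: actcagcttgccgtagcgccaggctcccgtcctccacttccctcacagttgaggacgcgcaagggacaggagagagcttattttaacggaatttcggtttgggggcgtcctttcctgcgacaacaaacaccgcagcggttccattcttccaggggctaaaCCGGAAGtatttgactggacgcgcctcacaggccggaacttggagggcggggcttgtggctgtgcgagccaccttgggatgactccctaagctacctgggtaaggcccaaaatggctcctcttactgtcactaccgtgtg
Mrps2: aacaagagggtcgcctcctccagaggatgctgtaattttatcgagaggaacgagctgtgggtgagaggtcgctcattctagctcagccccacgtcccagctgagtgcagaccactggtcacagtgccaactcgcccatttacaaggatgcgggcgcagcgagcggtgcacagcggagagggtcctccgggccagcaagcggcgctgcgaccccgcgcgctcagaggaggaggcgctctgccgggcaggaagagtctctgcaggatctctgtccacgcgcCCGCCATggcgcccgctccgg
Mrps10: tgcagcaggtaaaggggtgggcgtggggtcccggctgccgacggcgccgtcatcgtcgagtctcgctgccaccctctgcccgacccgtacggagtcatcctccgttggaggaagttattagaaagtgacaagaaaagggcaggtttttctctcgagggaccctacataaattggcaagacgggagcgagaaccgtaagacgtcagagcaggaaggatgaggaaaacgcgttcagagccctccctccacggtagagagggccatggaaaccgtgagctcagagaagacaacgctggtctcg

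A promoter was matched by symbol for 68 of the 77 members, the first listed where a gene had more than 1. The unmatched members were Mrpl4, Mrpl13, Mrpl15, Mrpl19, Mrpl38, Mrpl54, Mrps28, Mrps34 and Mrps35. The ETS core was found in 24 of the 68 (35.3%) against 9.12% of 27025 promoters of the same length, the YY1 core in 12 (17.6%) against 4.19%, and the NRF1 core in 8 (11.8%) against 2.80%. Among the 15 matched members that rose, 7 held the ETS core, 4 the YY1 core and 0 the NRF1 core. Among the 52 that were not called these numbers were 17, 8 and 8. In 3 member promoters matches of the motifs overlapped, none of them printed here. A match describes the letters only.

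Among large subunit proteins found only in mitochondria, Mrpl43 (ENSMUSG00000025208, mm39 chromosome 19, 44993268 to 44994881, minus strand) changed most of all members. It read 99, 93, 84 and 79 in WT against 198, 179, 189 and 182 in Mettl3 KO. The lowest Mettl3 KO library was far above the highest WT library, and the log2 fold change was 1.07 (standard error 0.09, adjusted p = 7.00e-08 in limma), or 2.10-fold. Mrpl51 (chromosome 6, 125168764 to 125173232, plus strand) read 154, 146, 166 and 149 in WT against 226, 227, 221 and 216 in Mettl3 KO. Its Mettl3 KO libraries lay close together and apart from WT, at 0.53 (standard error 0.07, adjusted p = 3.26e-05 in limma). Mrpl50 read 185, 192, 194 and 211 in WT against 248, 288, 278 and 236 in Mettl3 KO, a log2 fold change of 0.42 (standard error 0.07, adjusted p = 0.000735 in limma).

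Mrpl46 belongs to the central protuberance, the crest of the large subunit that faces the small one. With 73, 80, 66 and 82 in WT against 126, 110, 114 and 107 in Mettl3 KO it rose by 0.60 (standard error 0.10, adjusted p = 0.000507 in limma). Mrpl44, a protein with a ribonuclease III-like fold near the polypeptide exit, read 139, 126, 141 and 128 in WT against 180, 161, 179 and 167 in Mettl3 KO. It rose by 0.36 (standard error 0.08, adjusted p = 0.00473 in limma), the libraries of the genotypes again not overlapping. Mrpl57 read 50, 59, 58 and 61 in WT against 73, 80, 74 and 82 in Mettl3 KO (log2 fold change 0.43, SE 0.11, limma adjusted p = 0.0194). Mrps30, which despite its symbol is a large subunit protein, read 233, 210, 212 and 225 in WT against 267, 260, 254 and 241 in Mettl3 KO. Its difference was the smallest of those called (0.22, SE 0.07, limma adjusted p = 0.0447). The call held in 7 of the 22 alternative settings given below.

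Of 30 large subunit proteins with a bacterial homologue 5 rose. Mrpl19 read 128, 162, 151 and 129 in WT against 191, 175, 208 and 196 in Mettl3 KO (log2 fold change 0.44, SE 0.09, limma adjusted p = 0.00230). Mrpl27, whose bacterial counterpart reaches toward the peptidyl transferase centre, read 24, 28, 32 and 29 in WT against 42, 44, 40 and 42 in Mettl3 KO (0.56, SE 0.16, limma adjusted p = 0.0281). Mrpl12, the stalk protein that helps recruit translation factors, read 143, 172, 158 and 149 in WT against 201, 188, 185 and 181 in Mettl3 KO (0.28, SE 0.08, limma adjusted p = 0.0259). In each of these 3 genes every Mettl3 KO library exceeded every WT library. Mrpl34 (39, 47, 42 and 31 against 52, 67, 56 and 51) and Mrpl16 (183, 170, 192 and 192 against 225, 225, 220 and 200) rose by 0.50 and 0.24, with limma adjusted p = 0.0414 and 0.0417. Their calls held in 11 and 10 of the 22 alternative settings given below.

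In the small subunit, Mrps2, the homologue of bacterial S2, had the smallest p. It read 111, 120, 132 and 123 in WT against 195, 182, 177 and 168 in Mettl3 KO, a log2 fold change of 0.57 (standard error 0.08, adjusted p = 8.62e-05 in limma). Mrps34, a mitochondria-specific protein needed for a stable small subunit, read 56, 59, 47 and 55 in WT against 98, 68, 100 and 94 in Mettl3 KO. Mettl3 KO library 2 lay well below the other 3 but still above WT, and the log2 fold change was 0.71 (standard error 0.13, adjusted p = 0.00108 in limma). Mrps23, also mitochondria-specific, read 186, 202, 209 and 166 in WT against 292, 246, 255 and 236 in Mettl3 KO (0.43, SE 0.08, limma adjusted p = 0.00136). Mrps17, the homologue of S17, read 124, 122, 99 and 103 in WT against 177, 145, 145 and 139 in Mettl3 KO (0.43, SE 0.10, limma adjusted p = 0.00659), and Mettl3 KO library 1 stood apart from the other 3. Mrps26 rose from 44, 45, 37 and 42 to 60, 61, 65 and 53 (0.50, SE 0.13, limma adjusted p = 0.0201).

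Mrps10 alone fell. The homologue of bacterial S10, a protein of the head of the small subunit, read 122, 123, 112 and 121 in WT against 101, 93, 75 and 100 in Mettl3 KO. Mettl3 KO library 3 was the lowest, and the log2 fold change was -0.38 (standard error 0.10, adjusted p = 0.0220 in limma). Without that library the log2 fold change was -0.28 and Mrps10 no longer passed the test (limma adjusted p = 0.0963). Mrps10 also did not pass without WT library 1, 2 or 4 or Mettl3 KO library 2. The same held without the mean-variance trend and with the atrial marker covariate. Its call held in 15 of the 22 alternative settings given below. The next largest decreases among members with a mean of at least 20 did not pass in the main fit. Mrpl39 read 155, 185, 170 and 190 in WT against 134, 154, 153 and 149 in Mettl3 KO, with no overlap (-0.24, limma adjusted p = 0.0757). Of the 22 alternative settings it passed in 1, the fit without WT library 1 (limma adjusted p = 0.0424). Mrpl37, also without overlap, was at -0.14, Mrpl28 at -0.20 and Mrps36 at -0.30. In the fit with the atrial marker covariate Mrpl37 was at -0.26, Mrpl28 at 0.05 and Mrps36 at -0.71. Mrps36, named as a ribosomal protein, is known as a subunit of the 2-oxoglutarate dehydrogenase complex.

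**Figure D2:**
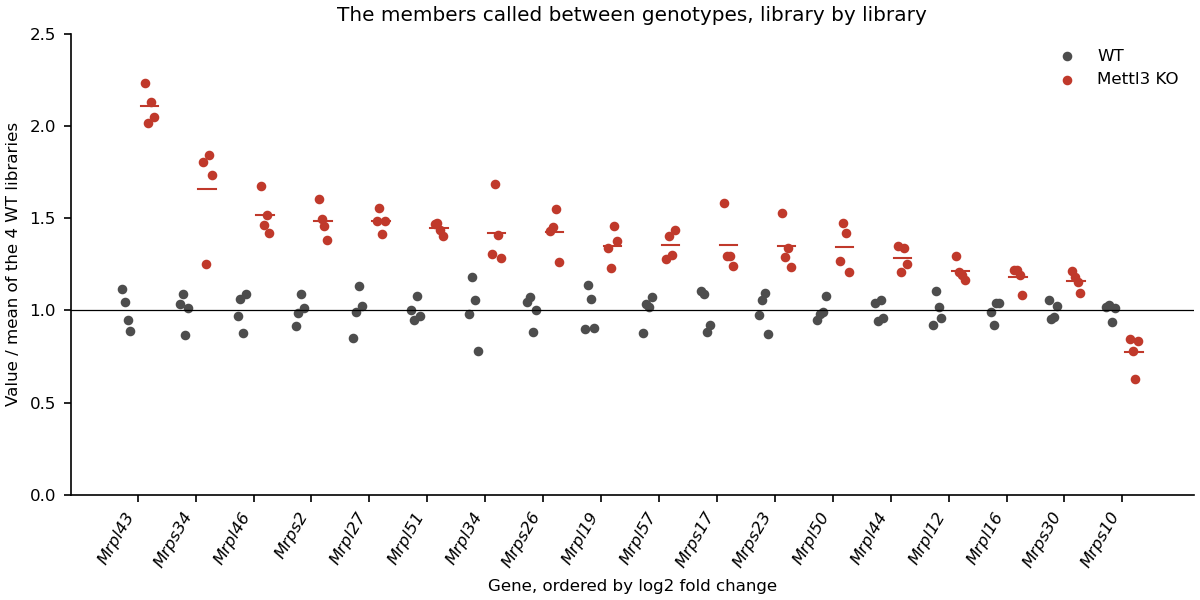
Normalised read count of each of the 18 members called by limma, divided by the mean of the 4 WT libraries (vertical axis, starting at 0), ordered by log2 fold change. Points are single libraries, WT grey and Mettl3 KO red, and red bars are Mettl3 KO means. In each gene the genotypes do not overlap, and Mettl3 KO library 2 of Mrps34, at 68, lies below the other Mettl3 KO libraries.

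Just outside the threshold stood Mrpl15 (165, 177, 161 and 166 against 191, 187, 187 and 214, limma adjusted p = 0.0738), Mrps7 (98, 115, 120 and 105 against 137, 139, 133 and 119, limma adjusted p = 0.0752), Mrpl41 (86, 98, 102 and 94 against 129, 120, 111 and 104, limma adjusted p = 0.0763) and Mrps24 (121, 109, 104 and 119 against 146, 136, 137 and 119, limma adjusted p = 0.105). Their log2 fold changes were 0.22, 0.27, 0.28 and 0.24. Of these, Mrpl15 and Mrpl41 had no overlap between the genotypes. Mrpl41 passed with the length and GC correction (0.31, limma adjusted p = 0.0467). It also passed with the atrial marker covariate (0.51, limma adjusted p = 0.0436).

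The members with the most reads differed little. Mrpl3, near the peptidyl transferase centre, read 344, 346, 341 and 380 in WT against 364, 365, 336 and 349 in Mettl3 KO, a log2 difference of 0.00 (95% interval -0.12 to 0.12). Mrps9 was at -0.08 (-0.21 to 0.04) and Mrpl18 at 0.11 (-0.02 to 0.25). At the other end, Mrpl22 (12 to 23 over the 8 libraries), Mrps18c (15 to 23) and Mrpl36 (18 to 35) had the fewest reads, and changes of their size were not resolved. Mrpl36 was at 0.46 with a 95% interval from 0.04 to 0.87 and did not pass the test (limma adjusted p = 0.187). The 3 relatives of bacterial S18 were at 0.02 (Mrps18a, which lies in the large subunit), -0.11 (Mrps18b) and -0.16 (Mrps18c), none of them called.

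Levels were taken per kilobase of the principal transcript (GENCODE M21, matched by gene identifier), with the median length where a gene had several. The WT median was 68.1 over the 50 large subunit members (15.6 to 370) and 58.8 over the 26 small ones (9.82 to 211). Mrpl30 (370 per kilobase) and Mrpl42 (356) were the highest and Mrps26 (9.82) the lowest, named after their values were seen. This order depends on the annotated length, 662 bases for Mrpl30 against 4278 for Mrps26. Called members ranged from Mrps26 and Mrpl57 (19.8) to Mrpl16 (159). Mrpl43 moved from 63.5 to 134 per kilobase, from below the large subunit median to well above it.

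The large and small subunits were then compared. By symbol, 11 of 48 Mrpl genes rose and 0 fell, and 6 of 29 Mrps genes rose and 1 fell. The median log2 fold change was 0.12 for Mrpl and 0.05 for Mrps genes, and 38 of 48 and 17 of 29 were above 0. With Mrps18a and Mrps30 counted in the large subunit and Mrps36 in neither, 12 of 50 large and 5 of 26 small subunit genes rose, and the medians were 0.12 and 0.10. The gap between the medians by symbol thus narrowed with 3 genes placed by structure. By symbol with the atrial marker covariate, 6 Mrpl and 3 Mrps genes rose, with medians of 0.23 and 0.16. Without the mean-variance trend 4 Mrpl genes and 1 Mrps gene rose. Of all genes, 2.78% and 1.04% were called higher in these fits.

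The summed value of the Mrpl genes was 5604, 6085, 5893 and 5975 in WT against 6684, 6680, 6583 and 6252 in Mettl3 KO. Both groups were tight, at 5889 ± 206 and 6550 ± 204 (SD, n = 4), and did not overlap. The Mrps genes summed to 3146, 3262, 3150 and 3191 in WT against 3657, 3475, 3410 and 3405 in Mettl3 KO, or 3187 ± 53.8 and 3487 ± 118 (SD, n = 4), again with no overlap. The sums were 1.11-fold and 1.09-fold higher in Mettl3 KO. The log2 ratio of the Mrpl to the Mrps sum was 0.89 ± 0.03 in WT and 0.91 ± 0.04 in Mettl3 KO (SD, n = 4). It ranged from 0.83 to 0.90 and from 0.87 to 0.95, so the genotypes overlapped and the difference of 0.02 was smaller than the spread between libraries. By structure the difference was also 0.02. Taken instead from the mean log2 value of each subunit's genes, by symbol, the difference was 0.06 with an SD of 0.04 in each genotype, larger than that spread, and the libraries of the genotypes still overlapped. By structure it was 0.04, with SDs of 0.03 in WT and 0.04 in Mettl3 KO, about the size of the spread. Together the members made up 0.318 ± 0.009% of the WT and 0.349 ± 0.008% of the Mettl3 KO library totals.

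**Figure D3:**
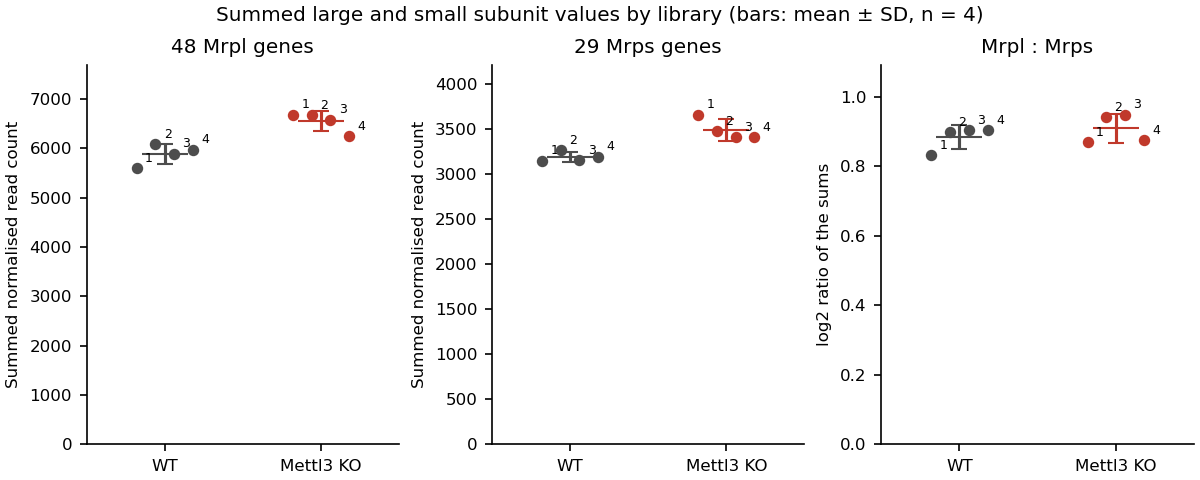
Summed normalised read counts of the 48 Mrpl genes (left) and the 29 Mrps genes (middle), and the log2 ratio of the sums (right), each axis starting at 0. Points are libraries labelled with their replicate number and bars are the mean ± SD of 4 libraries. Both sums are higher in every Mettl3 KO library than in any WT library, and the ratios overlap.

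The shift was seen in each Mettl3 KO library and differed in size among them. Relative to the WT mean, the median member stood at 0.19, 0.16, 0.11 and 0.08 on the log2 scale in Mettl3 KO libraries 1 to 4, while the WT libraries ranged from -0.06 to 0.05. With the mean log2 value of the atrial markers as a covariate, 9 members were called higher and 0 lower, against 2.78% of all genes called higher, and the members' median was 0.20.

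By origin, 10 of 30 mitochondria-specific proteins rose (33.3%, median log2 fold change 0.14), and 7 of 46 with a bacterial homologue rose and 1 fell (15.2%, median 0.10). Within the large subunit 7 of 20 and 5 of 30 rose, with medians of 0.17 and 0.10. In the small subunit 3 of 10 and 2 of 16 rose, and the medians were in the other order, 0.08 and 0.10, with 5 of 10 and 10 of 16 above 0. Of the relatives of bacterial S18, Mrps18a and Mrps18b were counted as mitochondria-specific and Mrps18c as having a bacterial homologue. The difference between the origins was not tested. A place in the structure was assigned to 24 of the 77 members, among them 5 of the 18 called, and the other 13 called members, Mrpl43, Mrpl51 and Mrps2 among them, had none. Of those with a place, 2 of 8 proteins of the central protuberance rose (Mrpl46 and Mrpl27), 1 of 4 of the stalks (Mrpl12), 1 of 4 around the peptidyl transferase centre (Mrpl16) and 1 of 7 at the exit tunnel (Mrpl44). Mrps12, of the decoding centre, read 37, 45, 36 and 37 in WT against 47, 53, 50 and 49 in Mettl3 KO and was not called (0.36, limma adjusted p = 0.129).

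Some members start close to the start of a gene on the opposite strand. In the mm39 coordinates of the table, 31 members had a protein-coding gene whose 5′ end lay within 1000 bases on the other strand, 8 of them among the 17 that rose. None of those 8 neighbours passed the test, beside 6.36% of protein-coding genes called higher and 3.65% lower. For 2 of them, Eme1 and Ska3, the mean value of 2.63 lay below that of 3 reads, with standard errors of 0.48 and 0.52. Among the neighbours of members that were not called 2 rose, Apba3 beside Mrpl54 and Mrpl46 beside Mrps11. Mrpl43 overlaps Twnk, the gene for the mitochondrial DNA helicase Twinkle, by 780 bases. Reads were assigned by strand, and Twnk read 187, 164, 163 and 173 in WT against 227, 190, 203 and 189 in Mettl3 KO. Its values did not overlap, but the log2 fold change of 0.23 (SE 0.08) did not pass (limma adjusted p = 0.0701). Ncapd2, a condensin subunit gene whose 5′ end lies 100 bases from that of Mrpl51, was at -0.07 (limma adjusted p = 0.795). Mrpl46 and Mrps11 overlap by 413 bases and are both members. Mrps11 read 56, 52, 65 and 59 in WT against 71, 67, 75 and 73 in Mettl3 KO, with no overlap (0.30, limma adjusted p = 0.124).

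The 5 mitoribosomal proteins whose symbols follow other rules were not called. Dap3, a GTP-binding small subunit protein, was at -0.15, Ptcd3 at -0.09, Aurkaip1 at 0.08, Chchd1 at 0.26 and Gadd45gip1 at 0.29 (limma adjusted p from 0.0953 to 0.645). Of these Chchd1 (84, 96, 92 and 88 against 103, 119, 111 and 100) had no overlap between the genotypes.

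Factors that assemble the mitoribosome moved in both directions. Of 28 such genes 6 rose and 2 fell, with a median of 0.06. Mrm3, a methyltransferase of the large subunit rRNA, read 64, 73, 63 and 73 in WT against 129, 102, 97 and 97 in Mettl3 KO (0.62, limma adjusted p = 0.000859). Mterf4, partner of an rRNA methyltransferase, rose from 106, 114, 111 and 104 to 149, 152, 159 and 140 (0.46, limma adjusted p = 0.000841). Ngrn rose by 0.56 and the RNA-binding protein gene Fastkd2 by 0.35, both with no overlap. The low genes Ddx28 (a helicase) and Tmem223 rose by 0.68 and 0.72 (limma adjusted p = 0.0474 and 0.0497). The values of Ddx28 overlapped between the genotypes and those of Tmem223 did not. Rmnd1, which is thought to hold the mitoribosome at the inner membrane, fell from 109, 108, 117 and 105 to 92, 81, 91 and 76 (-0.37, limma adjusted p = 0.0199). Ybey, an rRNA processing enzyme, read 35, 36, 36 and 30 in WT against 34, 15, 18 and 16 in Mettl3 KO, where library 1 lay within the WT range (-0.77, limma adjusted p = 0.0352).

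Of 18 translation factors 2 rose and 0 fell (median 0.05). Mtres1, a rescue factor for stalled mitoribosomes, read 176, 201, 180 and 213 in WT against 258, 238, 252 and 238 in Mettl3 KO (0.36, limma adjusted p = 0.00273), and Taco1, the translational activator of cytochrome c oxidase subunit I, rose by 0.30 (limma adjusted p = 0.0132). Of 17 regulators of mitochondrial transcription and biogenesis 5 rose and 0 fell (median 0.09). Tefm, the mitochondrial transcription elongation factor, read 82, 96, 93 and 101 in WT against 147, 142, 143 and 149 in Mettl3 KO (0.64, limma adjusted p = 5.39e-05). Mterf2 rose by 0.49, Tfam, which packages mitochondrial DNA, by 0.24, the transcription factor gene Yy1 by 0.22 and the nuclear receptor gene Esrrg by 0.23. In all 5 the genotypes did not overlap. Ppargc1a, the coactivator of mitochondrial biogenesis, was at 0.00 and was not called.

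For comparison with the most alike groups of genes, of 78 cytosolic ribosomal protein genes tested 2 rose (Rpl22 and Rpl15, 2.56%), with a median of 0.07, and of 85 nuclear-encoded subunits of oxidative phosphorylation 4 rose (Cox8a, Uqcrfs1, Atp5g1 and Ndufb8, 4.71%), with a median of 0.02. The share was 22.1% for the members, 21.4% for the assembly factors, 29.4% for the regulators and 11.1% for the translation factors, beside 4.72% of all genes. No test of the difference between these groups was made.

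**Figure D4:**
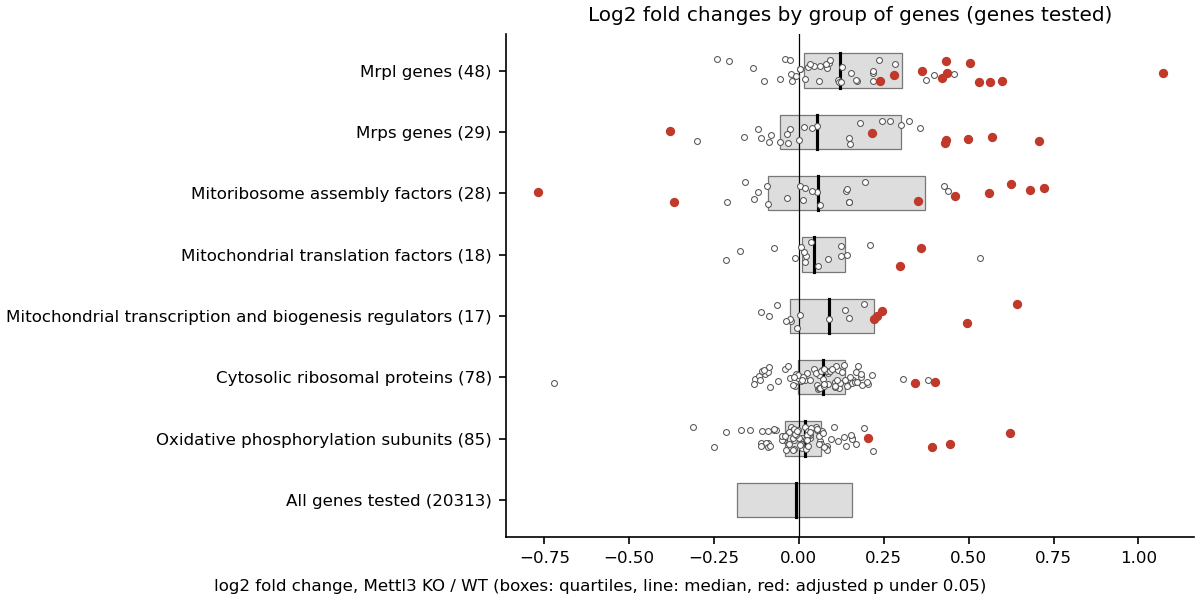
Log2 fold change (Mettl3 KO against WT) of the genes of 7 groups, with the number tested in brackets, and of all genes tested. Boxes span the quartiles, black lines are medians, points are genes, and red points passed the limma test at an adjusted p of 0.05. The Mrpl median of 0.12 is the highest of the medians drawn, and the box of the oxidative phosphorylation subunits is narrow around 0.02.

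Among the called members, 4 passed the test in each of 22 alternative settings, namely Mrpl43, Mrpl51, Mrpl46 and Mrps2. Mrpl19, Mrpl44, Mrps17 and Mrps23 passed in 21, Mrpl50 and Mrps34 in 20, Mrpl57 and Mrps26 in 17, and Mrpl12, Mrpl27 and Mrps10 in 15. The calls of Mrpl34, Mrpl16 and Mrps30 held in 11, 10 and 7. The lowest numbers of members called higher when a single library was left out were 10 (without Mettl3 KO library 2) and 11 (without Mettl3 KO library 3). Of all genes, 3.44% and 3.01% were called higher in these fits, against 4.72% in the main fit.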

How the data were processed

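The authors sequenced stranded total RNA libraries of mouse hearts. Per the submitters' processing notes and the study's methods, reads were trimmed with Trimmomatic 0.39, mapped by STAR 2.7.11a against mm39 (Ensembl genes), freed of duplicates with Picard 3.1.1 and of multi-mapping, ribosomal and mitochondrial reads, counted on the sense strand by featureCounts 2.0.4, reads over several genes being dropped, and normalized with DESeq2 1.36.0. Leaving out multi-mapping reads lowers genes with near-identical copies. The deposited values are a score, normalized read counts that the authors had rounded to whole numbers, and not raw counts.

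After removal of 2732 genes whose mean value was under 1, the other 20313 were compared between genotypes on the log2(value + 1) scale. The tool was limma (version 3.58.1, R version 4.3.3) with its trended prior variance and no covariate. P-values were two-sided and adjusted by Benjamini-Hochberg over all genes tested. A fold change on this scale understates that of low genes. Recovery of whole reads from gaps among low values gave totals of 2631906 to 3061268. The fit was tested on simulated data. Members, lists and tests were chosen with earlier results of these data known.

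Named were Mettl3, called members, the 5 nearest to the threshold, the 5 largest increases and decreases with a mean of at least 20, the 3 most and least abundant, Mrps18a, Mrps18b, Mrps18c, Mrps30, Mrps36, 5 mitoribosomal proteins outside the naming rule, and called genes of the translation, assembly and regulator lists. Other named genes (head-to-head neighbours, Mrps12, Mrpl30, Mrpl42, Ppargc1a, atrial markers and called genes of related groups) were chosen with their values seen. Subunit, origin and place were assigned by hand from the known structure. Alternatives were other scalings, pseudocounts, filters, variance models, voom on recovered reads, the replicate number as a block, a length and GC correction, an atrial marker covariate and each library left out. Precision is limited by 4 libraries per genotype. All 8 value columns were used.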

Additional observations from a re-analysis of the deposited data

Results flagged for a closer look

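Within groups of 4 libraries, 72 were checked for a library far from the others, by the ratio of its gap to the group's whole range. Chance marks about 1 in 20, or 3.60 of 72, and 6 were found. The ratio was 0.852 for Mrpl15 in Mettl3 KO (library 4 at 214, the others at 187 to 191), 0.872 for Mrpl3 in WT (library 4 at 380, the others at 341 to 346) and 0.842 for Mrps17 in Mettl3 KO (library 1 at 177, the others at 139 to 145). It was 0.889 for Mrps18b in Mettl3 KO (library 4 at 47, the others at 38 to 39) and 1.00 for Mrpl36 in WT (library 1 at 18, the others at 20). The log2 ratio of Mrpl to Mrps sums in WT gave 0.925, with library 1 at 0.83 and the others at 0.90, and without that library the difference between the genotypes was 0.01 in place of 0.02.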

How the results depend on the processing

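Without a mean-variance trend, 5 members were called higher (4 Mrpl, 1 Mrps) and 0 lower, where 1.04% of all genes were called higher. With the atrial marker covariate these numbers were 9 (6 Mrpl, 3 Mrps) and 0, with 2.78% of all genes, and the median log2 fold change was 0.20 for the members, 0.23 for Mrpl and 0.16 for Mrps. The cause was not tested in either case. Leaving out each library in turn gave 10 to 14 members higher (6 to 10 Mrpl, 4 to 6 Mrps), 0 to 1 lower, and medians of 0.09 to 0.15 for the members, 0.10 to 0.16 for Mrpl and 0.0349 to 0.11 for Mrps. In these fits 3.01% to 4.48% of all genes were called higher. The Mrpl count was 6 without WT library 1 or Mettl3 KO library 2 and 7 without Mettl3 KO library 3, and none was called lower without WT library 2 or 4 or Mettl3 KO library 2 or 3. All other settings gave 14 to 18 higher and 1 lower, with 3.99% to 7.31% of all genes called higher. The difference of the log2 subunit ratio was 0.06 from mean log2 values by symbol, 0.04 from those by structure and 0.02 from recovered reads, an alternative added after seeing the data. Over all these settings 48 to 59 of the 77 members had a log2 fold change above 0. Among the named members not called, 4 changed sign. Mrpl3 was at -0.0067 under total-count scaling, -0.0058 under upper-quartile scaling, -0.0077 under quantile normalization, -0.0069 and -0.0051 with voom on deposited values and recovered reads, -0.0135 with length and GC removed with or without the block, and -0.0121 to 0.0398 with a library left out. Mrps18a was at -0.0032 under quantile normalization and -0.0287 to 0.11 with a library left out, Mrpl22 at -0.0069 to 0.29 with a library left out, and Mrpl28 at 0.0539 with the atrial covariate.

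With a replicate block 14 members were called higher and 1 lower, where 3.99% of all genes were called higher. Same-numbered libraries of the genotypes correlated at 0.0522, 0.0421, -0.0414 and 0.0878 over 12027 genes. WT libraries 1 and 4 correlated best with their own number, and WT libraries 2 and 3 did not. The labels give no pairing, and low correlations cannot show that same-numbered libraries share nothing else.

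Low members are limited by depth, and a p that misses the threshold does not show that a member did not change.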
